A study of Mus musculus with 2 samples.

Results

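Cytotoxic lymphocytes kill through a small set of gene products, and their later dysfunction is read from another small set. The 10 genes followed here were 6 effector genes (Gzma, Gzmb, Gzmc, Prf1, Nkg7 and Ifng), 3 inhibitory receptor genes (Pdcd1, Lag3 and Havcr2) and Tcf7, a transcription factor gene of naive and stem-like T cells. They were taken by symbol from the 12584 genes of the deposited matrix, and all 10 were found. Their levels were read in single CD45+ cells, the leukocytes, sorted alive from melanomas that grew in C57BL6 mice for 12 days by the labels (the study's methods give another day for such experiments) after injection of YUMM3.3 cells, a Braf-mutant mouse line that lacks Cdkn2a. The Y3.3_NTT side came from cells that had never met targeted therapy. The Y3.3_RTT side came from their derivative with acquired resistance, which the study's methods keep in dabrafenib, a BRAF inhibitor, while in culture. No adoptive T cell transfer and no checkpoint antibody is stated for this pair, and the labels give no age, while the study's methods give only a range of weeks for all its mice.

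There was a single library on either side. The study describes pooled tumours for its YUMM1.7 libraries of sorted leukocytes, and how many tumours went into either library here is not known. A difference between tumour lines therefore cannot be told apart from one between mice, sorts or library preparations, replicate error is unknown, and no test was made. The NTT library held 2975 cells with 19634099 unique molecular identifiers (UMIs, each a tag of 1 captured transcript), and the RTT library held 4840 cells with 44712071. Median depth per cell was 5398 UMIs in NTT and 8335.5 in RTT, and 7 barcodes occurred in both libraries. Levels are given as CPM, the UMIs of a gene in every 1e+06 UMIs summed over the cells named. Intervals are exact 95% intervals (Poisson for CPM, Clopper-Pearson for shares, conditional binomial for ratios) and cover counting error only. A ratio is the log2 of RTT over NTT CPM, and a difference of at least 2-fold (a log2 of 1) in either direction is counted as lower or higher where a gene had at least 20 UMIs over both libraries.

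As background, granzymes are serine proteases that reach the target cell through pores made of perforin, the product of Prf1. Nkg7 encodes a membrane protein of cytotoxic granules, and Ifng encodes interferon-gamma, the main macrophage-activating cytokine of these cells. Pdcd1 (PD-1), Lag3 and Havcr2 (TIM-3) restrain T cells under lasting antigen exposure, and T cells that retain Tcf7 (TCF1) renew the effector pool. Havcr2 is also a known receptor gene of dendritic cells and monocytes, which makes its source in a whole tumour ambiguous.

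The only lymphocyte population in the deposited cell table is named NK_cells. It held 178 of 2975 NTT cells (5.98%, 95% interval 5.16 to 6.90) and 51 of 4840 RTT cells (1.05%, 0.786 to 1.38). The name did not describe most of its cells. A UMI of Trac, Trbc1 or Trbc2, the constant regions of the T cell receptor, was found in 176 of the 178 NTT cells and in 49 of the 51 RTT cells. A UMI of Cd3d, Cd3e or Cd3g was found in 153 and 46 cells. The NK cell receptor genes Ncr1, Klrb1c, Klra4 or Klra8 were detected in 32 NTT and 5 RTT cells. Cd8a or Cd8b1 marked 100 of 178 NTT cells (56.2%) and 15 of 51 RTT cells (29.4%), and Cd4 without Cd8 marked 33 and 17. Unlike the libraries as a whole, these cells were shallower in RTT, with a median of 3967 UMIs beside 5358.5 in NTT. The part of depth in these shares was not tested. The population is therefore called by its deposited name, NK_cells, and treated as a mixture of T and NK lymphocytes whose share of cells with a CD8 UMI differed between the libraries. Macrophage transcripts also differed within it. The C1q genes of macrophages reached 179 CPM in NTT and 2371 CPM in RTT NK_cells, all 6 of 6 macrophage marker genes were higher in RTT (median log2 3.45), and 0 NTT but 3 RTT cells held at least 20 C1q UMIs. Results within NK_cells are given with and without those cells where they matter.

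The 6 effector genes lay almost wholly in NK_cells in both libraries. Of the Gzmb UMIs, 97.1% of 6850 in NTT and 99.0% of 908 in RTT were in these cells. Ifng had 98.4% of 770 UMIs there in NTT and 100% of 131 in RTT. The shares of Gzma, Gzmc, Prf1 and Nkg7 ranged from 98.3% to 98.6% in NTT and from 97.6% to 100% in RTT. The receptors and Tcf7 were spread more widely. Pdcd1 had 90.1% of its NTT and 72.9% of its RTT UMIs in NK_cells, and Lag3 had 77.5% of 40 UMIs in NTT and 3 of 9 in RTT. Tcf7 was divided nearly equally, with 51.2% and 51.7% in NK_cells. Havcr2 was mainly myeloid, with only 17.3% of its NTT and 3.65% of its RTT UMIs in NK_cells. Counting genes with most of their UMIs outside NK_cells gave 1 of 10 in NTT (Havcr2) and 2 of 10 in RTT (Havcr2 and, on 9 UMIs, Lag3).

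**Figure D1:**
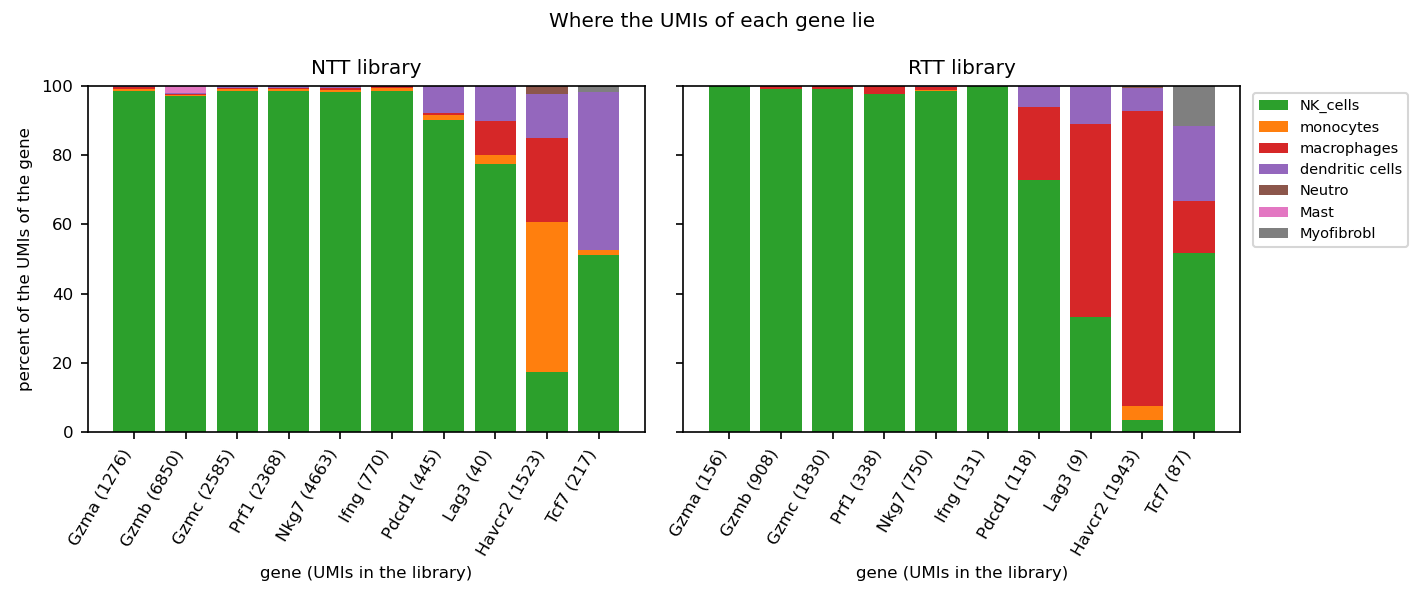
Percent of the UMIs of each gene (y axis) found in each cell class, for the NTT (left) and RTT (right) library, with the number of UMIs in brackets. The 6 effector genes are at least 97.1% NK_cells in both libraries, while Havcr2 lies mostly in monocytes and macrophages and Tcf7 is split between NK_cells and, in NTT, dendritic cells.

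Summed over all cells, 9 of the 10 genes were at least 2-fold lower in RTT and 0 were higher, where 14.2% of the 11623 genes with enough UMIs were lower and 10.5% higher. The median log2 ratio of the 10 was -3.54, beside 0.06 over all genes. Gzma was 65.0 CPM in NTT and 3.49 CPM in RTT (log2 -4.22, -4.47 to -3.98). Prf1 was 121 CPM and 7.56 CPM (log2 -4.00, -4.16 to -3.83). Nkg7 stood at 237 CPM and 16.8 CPM (log2 -3.82, -3.94 to -3.71). These 3 genes thus differed by 18.6-, 16.0- and 14.2-fold, and their intervals were narrow because each had at least 156 UMIs in either library. Gzmc was the least different effector, at 132 CPM and 40.9 CPM (log2 -1.69, -1.77 to -1.60). Among the receptors, Pdcd1 was 22.7 CPM and 2.64 CPM (log2 -3.10, -3.41 to -2.81) and Lag3 2.04 CPM and 0.201 CPM (log2 -3.34, -4.57 to -2.27). Tcf7 was 11.1 CPM and 1.95 CPM (log2 -2.51, -2.88 to -2.14). Havcr2 alone stayed within 2-fold, at 77.6 CPM and 43.5 CPM (log2 -0.84, -0.93 to -0.74), and it was detected in 862 of 2975 NTT cells and in 1343 of 4840 RTT cells.

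A sum over all cells mixes how many lymphocytes were present with how much of a transcript each held. All 20 of 20 lymphocyte defining genes (CD3, T cell receptor, CD4, CD8 and NK receptor genes among them) were also at least 2-fold lower in RTT, with a median of -3.51. Each difference was divided into a part from the shares of the populations in the library and a part from the levels within populations, each weighted by the mean of both libraries. The shares gave over 50% of the difference for 9 of the 10 genes. For Gzmb, -225 CPM of -329 CPM came from shares and -104 CPM from levels. For Gzmc the parts had opposite signs, -204 CPM from shares and 113 CPM from levels. For Tcf7 the shares gave -9.24 CPM and the levels 0.135 CPM in this division, although its level within RTT NK_cells rested on 1 cell, as described below. Lag3 was the exception, with 47.6% from shares on 49 UMIs in all. With RTT levels as weights 6 of the 10 genes were over 50%, and Gzma, Gzmb and Prf1 were at 40.8%, 44.0% and 47.1%.

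Within NK_cells the ratios were much smaller and went in both directions. Gzma, Gzmb and Lag3 were at least 2-fold lower in RTT, Gzmc was higher, and the other 6 genes lay within 2-fold. Among the 7767 genes counted in these cells 13.2% were lower and 5.25% higher, with a median over all genes of -0.11, so that 3 of 10 lower and 1 of 10 higher stand against that background. Gzmb was 5013 CPM (4893 to 5134) in NTT and 2438 CPM in RTT (log2 -1.04, -1.14 to -0.94). Prf1, at 1760 and 895 CPM, lay just inside the threshold (log2 -0.98, -1.15 to -0.81). Nkg7 was 3454 and 2007 CPM (log2 -0.78, -0.90 to -0.67). Of these 3 cytotoxic granule genes only Gzmb passed 2-fold, by 2.06-fold, while Prf1 (1.97-fold) and Nkg7 (1.72-fold) stayed within it. Ifng was 571 and 355 CPM (log2 -0.69, -0.96 to -0.42). Pdcd1 was 302 and 233 CPM (log2 -0.37, -0.73 to -0.03), and Havcr2 differed least, at 198 and 193 CPM (log2 -0.04, -0.44 to 0.34). Lag3 rested on 31 and 3 UMIs (log2 -1.52, -3.88 to 0.16), and its interval included no difference.

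**Figure D2:**
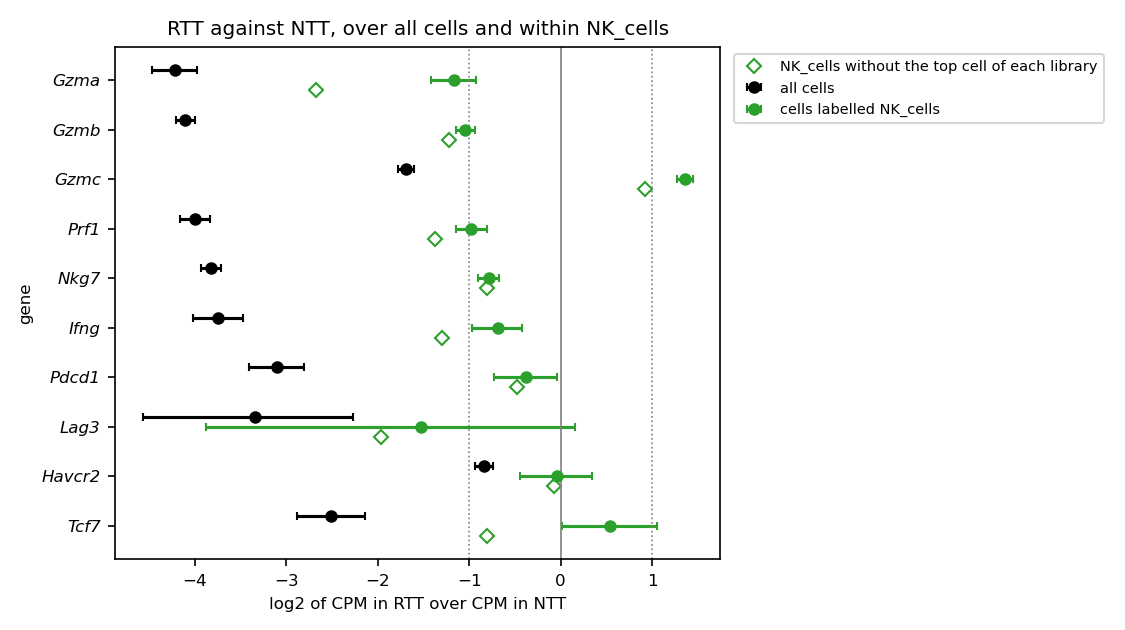
Log2 of RTT over NTT CPM (x axis) for each gene (y axis) over all cells (black) and within NK_cells (green), with 95% counting intervals, and within NK_cells after leaving out the cell with most UMIs of the gene in each library (open diamonds). Dotted lines mark 2-fold. Over all cells 9 genes lie left of -1, whereas within NK_cells 6 lie between the dotted lines and Gzmc lies to the right.

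Several of these values hung on single cells. In RTT 1 cell held 108 of the 156 Gzma UMIs, and it carried 8 NK receptor UMIs and 1 T cell receptor or CD3 UMI. Without the top cell of each library Gzma was 857 CPM in NTT and 134 CPM in RTT, a log2 of -2.68. For Gzmc the RTT top cell held 789 of 1816 UMIs. That cell had 0 Gzmb UMIs, 6 CD3 or T cell receptor UMIs and 143 C1q UMIs among 9169 in all. The second cell held another 595 Gzmc UMIs and was at the same time the top Gzmb (223) and Prf1 (109) cell of the library, with 180 CD3 or T cell receptor and 34 CD8 UMIs. The higher Gzmc level of RTT was therefore carried by 2 cells of different make-up. Its log2 of 1.36 became 0.93 without the top cell of each library, 0.19 without the top 2, and 0.53 without cells that held at least 20 C1q UMIs. For Tcf7 the sign turned. The RTT top cell held 32 of 45 Tcf7 UMIs in a total of 54395 UMIs, with 364 CD3 or T cell receptor UMIs, and the log2 of 0.54 (0.01 to 1.06) became -0.81 without the top cell of each library and -1.24 without the top 2. Leaving out the top cell gave 5 of 10 genes lower and 0 higher, with Prf1 at -1.37 and Ifng at -1.30 added to Gzma, Gzmb and Lag3. Leaving out the 3 C1q-rich RTT cells gave 1 lower (Lag3, -1.35), with Gzma at -0.995, just inside the threshold, and Gzmb at -0.89.

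**Figure D3:**
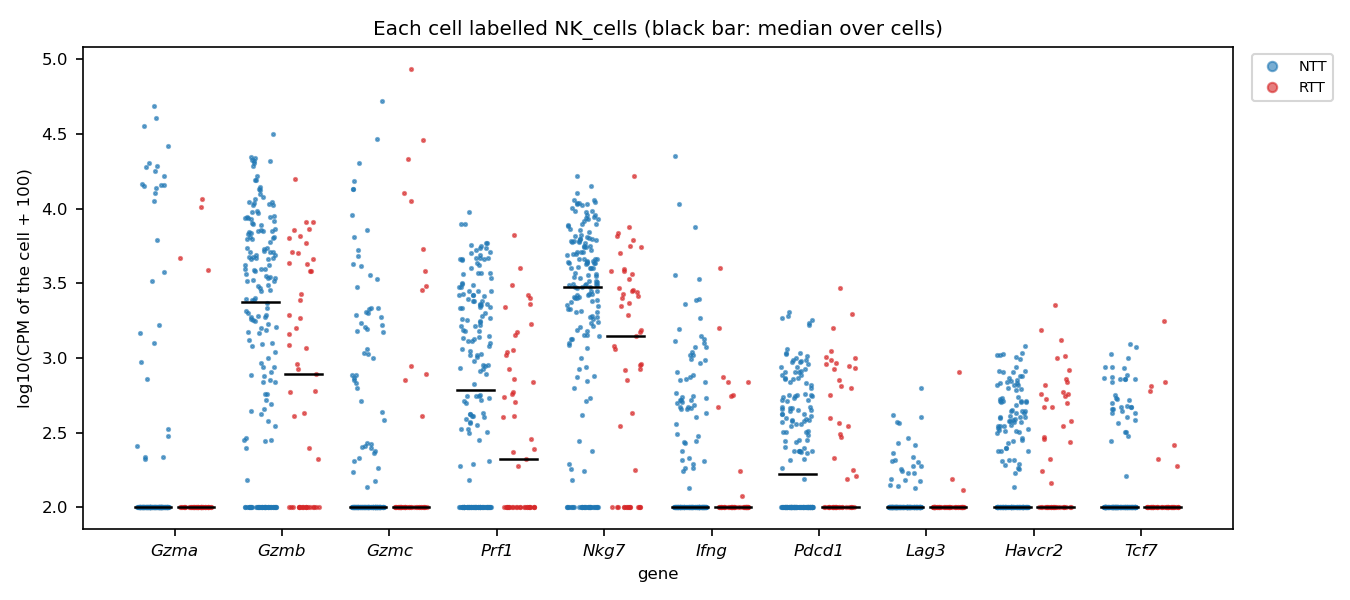
Level of each gene in every NK_cells cell of the NTT (178, blue) and RTT (51, red) library, as log10 of the CPM of the cell plus 100, with points spread sideways at random and a black bar at the median over cells. Gzmb and Nkg7 fill a continuous range in both libraries, while Gzma, Gzmc and Tcf7 are at 0 in most cells and high in a few.

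Shares of cells with a UMI give each cell the same weight and are less swayed by single cells. After each cell was thinned to 2000 UMIs, 164 NTT and 41 RTT cells remained and 14 and 10 shallower cells were left out. Gzmb was detected in 73.2% of the NTT and 58.5% of the RTT cells (76.4% and 62.7% before thinning). Prf1 was detected in 59.8% and 41.5%, and Nkg7 in 76.8% and 65.9%. Gzma was found in 14.6% and 7.32% of thinned cells and Ifng in 25.6% and 17.1%. All 6 effector genes thus had the lower share in RTT, Gzmc included (25.0% and 22.0%), although its summed level was higher there. Pdcd1 was detected in 31.1% and 31.7%, and Havcr2 in 27.4% and 41.5%. The share of Tcf7 was 18.3% in NTT and 7.32% in RTT, again against its summed level, so that no order between the libraries is read from it. In all, 8 of 10 genes had the higher thinned share in NTT, and the number of thinned cells, 41 in RTT, left wide intervals for each. The share of CD8 cells in the label also differed (56.2% and 29.4%). At full depth Gzmb was found in 12 of 15 RTT CD8 cells and, in NTT, in 5 of 14 CD8 cells with Tcf7 and 72 of 86 without. After thinning these were 9 of 14, 3 of 9 and 68 of 85. A lower share among CD8 cells is therefore not read from the shares over the label.

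Inside the NTT NK_cells the genes marked different cells. The 32 cells with an NK receptor UMI held 999 of the 1258 Gzma UMIs (79.4%), at 6440 CPM, against 174 CPM in the 100 cells with a CD8 UMI. Tcf7 was found in 20 of the 32, at 342 CPM. Pdcd1 was found in 2, Ifng was 77.4 CPM, and Havcr2 was found in 0 (95% interval up to 10.9%). Gzma, a granzyme shared by NK cells and T cells, was here mainly an NK receptor cell transcript. The CD8 cells, a set that can share cells with the NK receptor set, carried most of the other effectors. They held 80.0% of the Gzmb, 83.4% of the Gzmc, 86.0% of the Prf1 and 93.0% of the Ifng UMIs, and 92.8% of the Pdcd1, 93.5% of the Lag3 and 78.7% of the Havcr2 UMIs. The CD8 cells were also deeper, with a median of 7226 UMIs beside 5358.5 in all NTT NK_cells, and these shares do not correct for that. By CPM the CD8 cells and all NTT NK_cells, which include them, were closer for Gzmb (5825 and 5013) and Havcr2 (227 and 198) than for Ifng (772 and 571). In the NK receptor cells Gzmb was 3694 CPM. In the 33 cells with Cd4 and no CD8 UMI, Gzmb was still 2924 CPM and Havcr2 208 CPM, found in 18 of them, while Gzmc was 75.1 CPM. In RTT the 15 CD8 cells held 78.2% of the Gzmb and 99.2% of the Ifng UMIs, and the 5 NK receptor cells held 69.2% of the Gzma UMIs, all in 1 cell.

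Comparing CD8 cells only, which removes the difference in CD8 share, gave smaller ratios for Gzmb, Prf1, Ifng and Gzmc than in NK_cells as a whole and larger ones for the other 6 genes. Of the 10 genes 2 were at least 2-fold lower here (Gzma and Lag3) and 1 higher (Tcf7), where 16% of the 6644 genes counted in these cells were lower and 7.22% higher. Gzmb was 5825 CPM in the 100 NTT and 3661 CPM in the 15 RTT CD8 cells (log2 -0.67, -0.79 to -0.56). Prf1 was 2200 and 1437 CPM (log2 -0.61, -0.80 to -0.43), and Ifng was 772 and 677 CPM (log2 -0.19, -0.47 to 0.08). Pdcd1 was 407 and 234 CPM (log2 -0.80, -1.28 to -0.35). Nkg7 was 4041 and 2239 CPM (log2 -0.85, -0.999 to -0.71), and Gzmc was 2325 and 4249 CPM (log2 0.87, 0.75 to 0.99). None of these 6 genes reached 2-fold, and for Ifng the counting interval included no difference. Gzma was not detected in the RTT CD8 cells and so at least 11.1-fold lower, taking a floor of 3 UMIs over the 15 cells. It was however found in only 6 of the 100 NTT CD8 cells, and 1 of these held 64 of its 159 UMIs. With so few cells the absence in 15 cells is not read as a lower level per cell. Tcf7 was 60.2 and 182 CPM (log2 1.60, 0.94 to 2.23), but 32 of its 35 RTT UMIs came from the 1 cell named above. Lag3 rested on 29 and 2 UMIs (log2 -1.61, -4.72 to 0.37), an interval that included no difference, and Havcr2 was 227 and 203 CPM (log2 -0.16, -0.69 to 0.34). The Gzmc level also hung on 1 cell, which held 595 of the 816 RTT UMIs. Without the top cell of each library Gzmc was 1722 and 1346 CPM (log2 -0.36, -0.57 to -0.15) and Tcf7 43.0 and 21.8 CPM (log2 -0.98, -3.32 to 0.68), both with the sign turned. That filter gave 4 of 10 genes lower and 0 higher, with Prf1 at -1.04 and Pdcd1 at -1.06 added to Gzma and Lag3, and Gzmb at -0.85.

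Tcf7 and Havcr2 were detected together in 1 NTT cell of the NK_cells. Of the 37 NK_cells with a Tcf7 UMI 1 also had Havcr2, against 82 of the 141 without Tcf7. Of these 37 cells 20 were NK receptor cells, where Havcr2 was not detected at all. Among CD8 cells the counts were 0 of 14 (0 to 23.2%) and 58 of 86 (67.4%, 56.5 to 77.2). After thinning they were 0 of 9 (0 to 33.6%) and 31 of 85 (26.3% to 47.6%), whose intervals overlap. Pdcd1, by contrast, was found in 11 of the 14 CD8 cells with Tcf7 and in 63 of the 86 without, and Gzmb in 5 of 14 and 72 of 86. After thinning Pdcd1 was found in 4 of 9 and 40 of 85. At full depth NTT thus held a small set of CD8 cells with Tcf7 and Pdcd1 and no detected Havcr2. As background, stem-like exhausted T cells are usually recognised by these markers. In RTT only 7 NK_cells had a Tcf7 UMI, 3 of them with Havcr2 against 22 of the 44 others, and only 2 were CD8 cells, too few to read a pattern. In NTT Havcr2 was found more often in cells with Gzmb or Pdcd1 and less often in cells with Gzma (6 of 30, against 77 of 148 without Gzma). The Gzma gap was not seen without the NK receptor cells, where Havcr2 was in 6 of 10 cells with Gzma and 77 of 136 without. Among CD8 cells it was in 4 of 6 and 54 of 94. Gzmb was found in 75 of 83 NTT cells with Havcr2 and in 61 of 95 without, and Havcr2 in 59 of 90 cells with Pdcd1 and 24 of 88 without. Both pairings moved with depth. Cells with Havcr2 held a median of 7956 UMIs and cells without it 4159, and after thinning Gzmb was found in 38 of 45 (70.5% to 93.5%) and 82 of 119 (59.8% to 77.1%), whose intervals overlap. Cells with Pdcd1 held a median of 8020.5 UMIs and cells without it 3434.5, and after thinning Havcr2 was found in 19 of 51 and 26 of 113. Gzmc was nested in Gzmb, which was found in 54 of 55 NTT cells with Gzmc and 82 of 123 without. All of Pdcd1, Lag3 and Havcr2 were detected together in 17 of 178 NTT cells (9.55%, 5.66 to 14.9) and in 2 of 51 RTT cells (3.92%, 0.478 to 13.5), which the intervals do not separate.

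The Gzmb and Gzmc genes stand close together in the granzyme cluster on chromosome 14 (mm10 chr14:56258838-56262260 and chr14:56231441-56234656, both on the minus strand), and their summed levels within NK_cells had opposite signs, that of Gzmc resting on 2 RTT cells. Their sequences upstream of the start annotated by RefSeq on GRCm38.p6 are shown to let the regulatory regions be compared. They span chr14:56262335-56262584 for Gzmb and chr14:56234658-56234907 for Gzmc and are written 5′ to 3′ on the strand of the gene. Capitals mark TGTGGT, the core letters bound by RUNX factors (ACCACA where it lies on the other strand), and in Gzmb also the AP-1 letters TGANTCA.
Gzmb: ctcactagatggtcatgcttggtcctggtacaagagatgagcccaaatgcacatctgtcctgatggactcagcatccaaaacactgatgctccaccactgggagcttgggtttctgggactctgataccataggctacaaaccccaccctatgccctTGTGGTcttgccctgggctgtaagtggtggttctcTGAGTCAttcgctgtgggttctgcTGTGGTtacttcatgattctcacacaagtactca
Gzmc: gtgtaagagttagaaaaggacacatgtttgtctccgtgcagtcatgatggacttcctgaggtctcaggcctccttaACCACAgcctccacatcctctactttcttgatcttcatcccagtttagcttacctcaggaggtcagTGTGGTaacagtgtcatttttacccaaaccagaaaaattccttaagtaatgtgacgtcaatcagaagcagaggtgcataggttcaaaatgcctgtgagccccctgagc
Both hold the RUNX letters at 2 places, 93 and 34 bases upstream in Gzmb and 174 and 108 bases upstream in Gzmc. All distances are from the RefSeq start, and for Gzmb the gene as annotated by GENCODE begins further downstream, at 56262260. The AP-1 letters were found in Gzmb at 58 bases and not in Gzmc. Searched on both strands over 250 bases, the RUNX letters occur in 14.0% of 32851 annotated promoters and the AP-1 letters in 6.75%. RUNX letters were present in 6 of the 9 genes with an entry (Gzma, Gzmb, Gzmc, Prf1, Nkg7 and Havcr2). T-box letters GGTGNGA (15.2% of promoters) were in Prf1, Nkg7 and Pdcd1, and TCF/LEF letters CTTTGNT (16.0%) were in none of the 9. Aligned, the Gzmb and Gzmc sequences were identical at 57.1% of positions without a gap. That is close to the 56.8% of Gzmb with Gzma, which lies on chromosome 13, and above the 50.6% of Gzma with Gzmc. Promoters of other genes were not aligned. A match is a match of letters in this window and no measurement of binding.

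Among populations with at least 20 cells, each of the 6 effector genes had its highest level in NK_cells. In NTT the highest level outside NK_cells, among the 10 others, was 2.21 CPM for Gzma, 8.83 CPM for Gzmb, 18.4 CPM for Gzmc, 6.34 CPM for Prf1, 11.4 CPM for Nkg7 and 1.36 CPM for Ifng. In RTT Gzma and Ifng were at 0 in all 13 other populations. To judge such traces, the CD3 and T cell receptor genes Cd3d, Cd3e, Cd3g, Trac, Trbc1 and Trbc2 were summed in the same cells, since macrophages, monocytes and dendritic cells should lack them. In NTT that sum stood at 0.107% of its NK_cells level in monocytes, 0.0880% in macrophages and 0.182% in dendritic cells. Gzmb was at 0.0696%, 0.0502% and 0.101%, and Nkg7 at 0.108%, 0.121% and 0.138%. Among values above that sum were Gzmc (0.232%) and Prf1 (0.217%) in dendritic cells and Ifng in monocytes (0.143%) and macrophages (0.147%), each with an interval that reached below it. Traces of the effectors in these classes are thus of the size of the T cell transcripts found there. Whether they are stray RNA, mixed droplets or low expression was not tested. Gzmc in NTT cDC1 stood apart, at 0.956% of the NK_cells level (0.494 to 1.67) beside 0.131% for the sum there, and its 12 UMIs lay in 3 cells and 10 of them in 1. In RTT macrophages, 4009 cells, Gzmb had 9 UMIs (0.00937% of the NK_cells level) and Gzmc 13, while Gzma and Ifng had 0 of 4009 cells each, which allows a share of cells with a UMI of up to 0.0748% (3 counts in 4009).

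**Figure D4:**
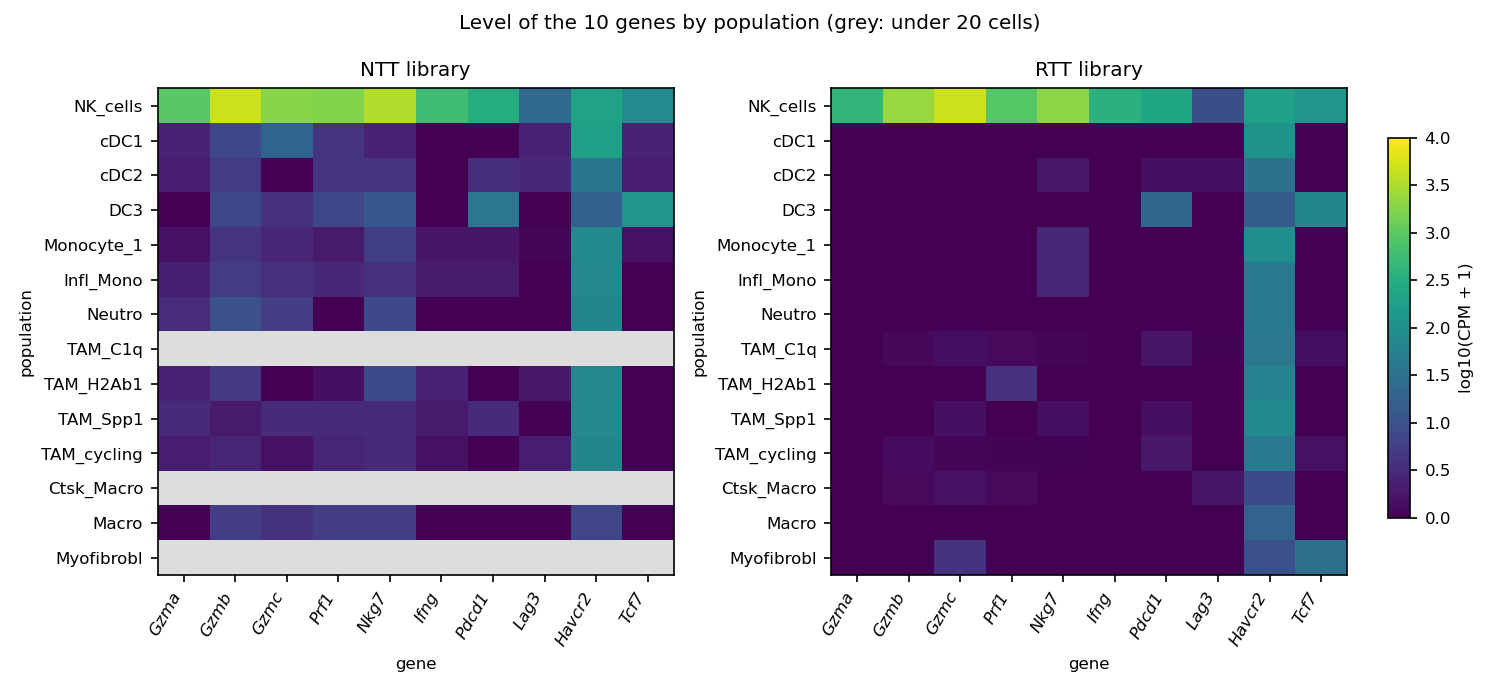
Level of the 10 genes (columns) in each deposited population with at least 20 cells (rows) of the NTT (left) and RTT (right) library, as log10 of CPM plus 1 on 1 colour scale. The effector columns are bright in the NK_cells row only, the Havcr2 column is bright in nearly every row, and Tcf7 and Pdcd1 also show in DC3.

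Mast cells were the exception to this for Gzmb. Of the 3 NTT cells labelled Mast, 2 held 17 and 117 Gzmb UMIs, with 428 and 1798 UMIs of the mast cell protease gene Mcpt1 and 0 UMIs of the lymphocyte defining genes. The third had 145 Mcpt1 UMIs and 0 of Gzmb. Both RTT Mast cells had 0 Gzmb and 0 Mcpt1 UMIs, with 62 and 138 UMIs of Cpa3, another mast cell protease gene. The 3 NTT cells together stood at 6889 CPM of Gzmb (5772 to 8159) and held 1.96% of the NTT Gzmb UMIs, but 3 cells are too few to give a level of mast cells.

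Havcr2 was the member that myeloid and dendritic cells clearly expressed. In NTT it was highest in NK_cells (198 CPM, 175 to 224) and in cDC1 (188 CPM, 156 to 224), whose intervals overlapped. Monocyte_1 (80.1 CPM), TAM_Spp1 (74.9), Infl_Mono (71.9), TAM_H2Ab1 (70.3), Neutro (68.4) and TAM_cycling (65.3) followed, each with an interval overlapping the next. Below a gap came cDC2 (35.2 CPM), DC3 (16.5 CPM) and Macro (5.76 CPM). The order was nearly the same in RTT. NK_cells (193 CPM) were followed by cDC1 (111 CPM, 81.5 to 149), whose interval did not reach that of NK_cells, then by Monocyte_1 (91.3 CPM) and TAM_Spp1 (78.9 CPM). TAM_cycling (44.4 CPM) and TAM_C1q (39.5 CPM), the largest RTT populations, stood lower, and Ctsk_Macro (6.88 CPM) was last of 14. As percent of the NK_cells level, Havcr2 was at 38.8% in NTT and 34.8% in RTT monocytes and at 94.9% and 57.8% in cDC1. The CD3 and T cell receptor sum stood at 0.107% and 0.0523% in the same monocytes and at 0.131% and 0 UMIs in cDC1. Few of the cells with Havcr2 held a T cell receptor or CD3 UMI. Of 455 NTT monocytes with Havcr2 14 had such a UMI, and of 1160 RTT macrophages with Havcr2 30 had one. Without those cells the level was 78.0 CPM in NTT monocytes and 43.4 CPM in RTT macrophages, against 77.0 and 42.1 CPM with them.

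**Figure D5:**
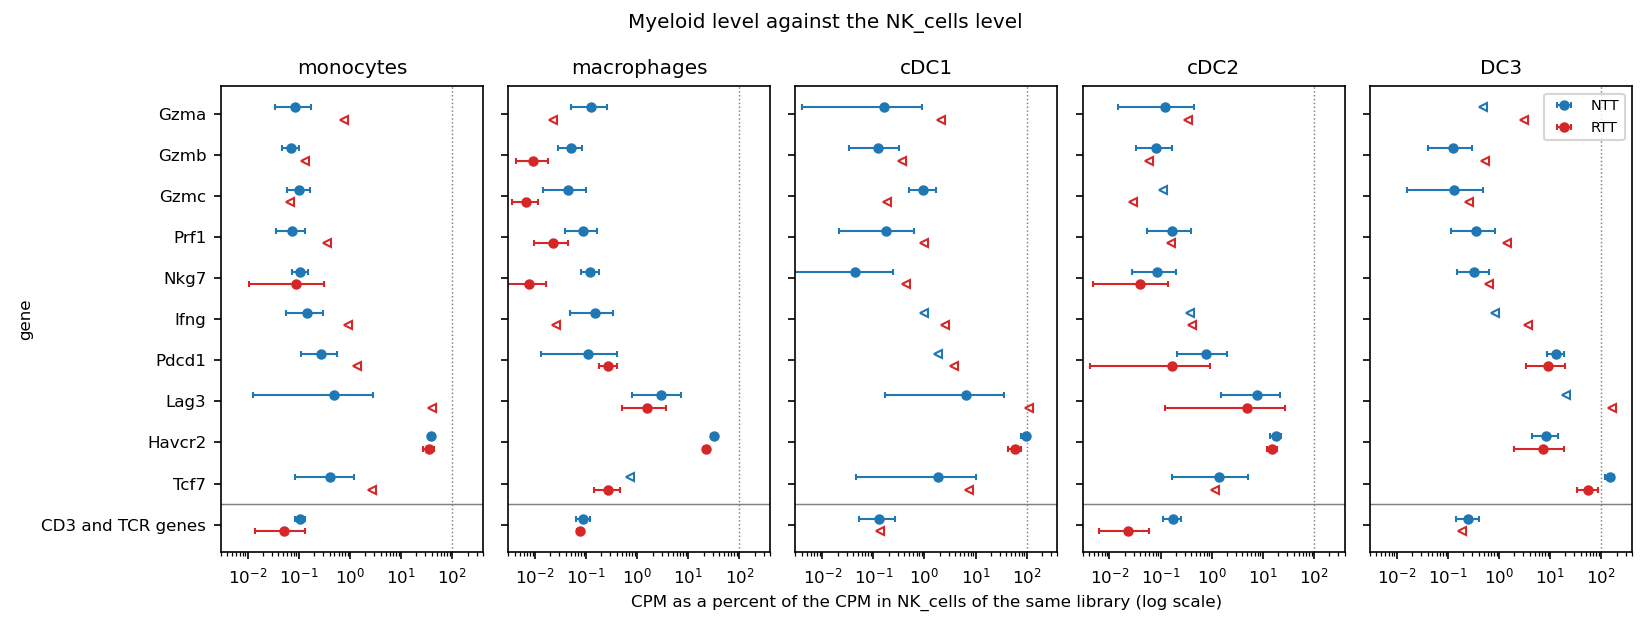
CPM of each gene in monocytes, macrophages, cDC1, cDC2 and DC3 as percent of its CPM in NK_cells of the same library (log scale), NTT in blue and RTT in red, with 95% counting intervals of the myeloid count. Open triangles mark the upper limit of genes with 0 UMIs, and the bottom row is the CD3 and T cell receptor sum. The effectors lie near that row, while Havcr2 lies far to its right in each panel and Tcf7 and Pdcd1 do so in DC3.

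Within myeloid classes Havcr2 stayed within 2-fold between the libraries. In macrophages, dendritic cells, cDC1, Infl_Mono and TAM_cycling it was lower in RTT by intervals that left out no difference. It was 77.0 and 67.1 CPM in monocytes (log2 -0.20, -0.56 to 0.14), 61.9 and 42.1 CPM in macrophages (log2 -0.56, -0.72 to -0.39), and 62.3 and 38.7 CPM in dendritic cells (log2 -0.68, -1.02 to -0.35). In cDC1 it was 188 and 111 CPM (log2 -0.76, -1.28 to -0.26). The log2 was -0.24 (-0.75 to 0.27) in cDC2 and, on 13 and 4 UMIs, -0.22 (-2.30 to 1.47) in DC3. The dendritic cell value mixes populations, since cDC1 made up 78 of 492 NTT but 56 of 526 RTT dendritic cells. Of the monocytes, Infl_Mono was at -0.65 (-1.28 to -0.07) and Monocyte_1 at 0.19 (-0.27 to 0.62). The macrophage value also mixes populations, since TAM_C1q made up 17 of 582 NTT but 2001 of 4009 RTT macrophages. Within TAM_Spp1 the log2 was 0.08 (-0.28 to 0.45), within TAM_H2Ab1 -0.27 with an interval that included no difference, and within TAM_cycling -0.56 (-0.84 to -0.26). None of these reached 2-fold, where 9.04% of the 5629 genes counted in cDC1 were lower and 6.06% higher. For dendritic cells the Havcr2 sign turned without cells with a lymphocyte defining UMI, a filter described below. Few other members could be compared in these classes. In monocytes 1 of the 3 genes with enough UMIs was lower (Nkg7, 32 and 2 UMIs, log2 -1.08, -4.18 to 0.89), where 9.77% of 9274 genes were lower and 6.08% higher. That interval included no difference, and Gzmb, with 30 and 0 UMIs, was at least 1.32-fold lower. In macrophages 2 of 4 were lower (Gzmb and Nkg7, at trace level), where 8.87% of 10816 genes were lower and 7.12% higher. In dendritic cells 2 of 3 were lower (Tcf7 and Pdcd1), where 9.29% of 9258 genes were lower and 8.99% higher.

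The Havcr2 upstream region is shown because this gene, unlike the effectors, was read in lymphocytes and myeloid cells alike. It lies at chr11:46454681-46454930 (GRCm38.p6, plus strand), ahead of the gene at chr11:46454935-46481255. Capitals mark, from left to right, AP-1 letters (TGANTCA), RUNX letters (TGTGGT) and GAGGAAG, the letters of PU.1, a myeloid transcription factor.
Havcr2: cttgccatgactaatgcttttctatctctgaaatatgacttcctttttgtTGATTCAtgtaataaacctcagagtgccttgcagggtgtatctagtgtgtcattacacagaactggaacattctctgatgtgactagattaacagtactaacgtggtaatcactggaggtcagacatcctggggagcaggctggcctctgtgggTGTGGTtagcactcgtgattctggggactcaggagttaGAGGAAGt
The matches start 200, 46 and 8 bases upstream. The PU.1 letters occur in 10.6% of promoters and, among the 9 genes, in Havcr2 and Pdcd1 only.

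Tcf7 and Pdcd1 had a second site of expression in the dendritic cells labelled DC3. Tcf7 was 122 CPM in NTT and 67.1 CPM in RTT DC3, which is 146% and 55.0% of the NK_cells level. It was found in 39 of 135 NTT cells (28.9%) and 13 of 57 RTT cells (22.8%), or 15.6% and 9.62% after thinning. Only 2 of the 39 and 0 of the 13 also had a CD3 or T cell receptor UMI. In the other dendritic cells it had 1 UMI in NTT cDC1, 2 UMIs in NTT cDC2 and 0 in RTT. The cells with Tcf7 also held transcripts of mature dendritic cells. Ccr7, a lymph node homing receptor gene, was found in 39 of 39 NTT DC3 with Tcf7 and 91 of 96 without, and Fscn1, an actin-bundling gene of mature dendritic cells, in 38 of 39 and 60 of 96. Of the plasmacytoid dendritic cell genes listed, Siglech, Ccr9 and Klk1 were found in 0 of 39. Tcf4 was found in 17 of 39 with Tcf7 and 33 of 96 without, and Bst2 in 28 of 39 and 68 of 96. Pdcd1 was 39.3 CPM and 21.2 CPM in DC3 (13.0% and 9.08% of the NK_cells level), and it was found in 9 of 39 DC3 with Tcf7 and 6 of 96 without. Median depth was 6207 UMIs in DC3 with Tcf7 and 5177 without, and the part of depth in these counts was not tested.

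Over all dendritic cells Tcf7 was 31.4 CPM in NTT and 5.84 CPM in RTT (log2 -2.43, -3.22 to -1.71), and Pdcd1 was 11.1 and 2.15 CPM (log2 -2.37, -3.79 to -1.18). Much of this went with make-up, since DC3 were 135 of 492 NTT but 57 of 526 RTT dendritic cells. Within DC3 the ratios were -0.86 (-1.65 to -0.14) for Tcf7 and -0.89 (-2.44 to 0.39) for Pdcd1, and 10.2% of 5282 genes were at least 2-fold lower and 8.35% higher there.

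The members differed in how closely other genes followed them over populations. Over 25 sums (each a population with at least 20 cells in 1 library), the genes with the highest Pearson correlation on the log scale were Themis, Ifng and Tox for Gzma (r 0.998 each), Nkg7 for Gzmb (0.997), Sh2d2a for Prf1 (0.998) and Cd160 for Ifng (0.999). Such values mostly restate that these genes were confined to NK_cells, since 2 of the 25 sums are NK_cells and the sums share libraries and depth. Gzmc was nearest to Gzmd (0.992), Xcl1 (0.991) and Gzme (0.989), and Pdcd1 to Thy1 (0.984). Tcf7 was nearest to Tnfrsf4 (0.939) and Serpinb6b (0.921), and Havcr2 had no close companion, with Slc35d2 (0.779), Glrx (0.756) and Itgal (0.752) first. Lag3 had too few UMIs for this.

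Among 18 other granule and killing genes counted, 14 were lower and 0 higher over all cells, but within NK_cells 4 were lower, 4 higher and 10 within 2-fold. The shares of all genes to read these and the following list counts against are 14.2% lower and 10.5% higher over all cells, and 13.2% lower and 5.25% higher within NK_cells. Serglycin (Srgn), which packs granules, was 2476 CPM in NTT and 2745 CPM in RTT NK_cells, and the cathepsin gene Ctsw was 485 and 382 CPM. Ctsc, whose product activates granzymes, was 151 and 510 CPM (log2 1.76) and the lysosome gene Lamp1 87.4 and 220 CPM (log2 1.33). Both are also genes of macrophages, whose C1q transcripts were higher in the same RTT cells, and the part of these in the result was not tested. Stxbp2, which serves granule release, was 69.3 and 29.8 CPM (log2 -1.22), and Klrk1, the NKG2D receptor gene, 496 and 225 CPM (log2 -1.14). The granzyme genes next to Gzmc differed in direction. Gzmd was 179 and 458 CPM (log2 1.35), Gzme 401 and 575 CPM (log2 0.52) and Gzmf 1188 and 410 CPM (log2 -1.54). Of the lymphocyte cytokine and interferon-gamma genes, 17 of 21 were lower over all cells and 7 of 18 within NK_cells, with 3 higher. Ccl4, a chemokine gene of activated T cells, was 1806 and 898 CPM in NK_cells (log2 -1.01), Ccl5 1038 and 1527 CPM (log2 0.56), and Xcl1, which attracts cDC1, 293 and 960 CPM (log2 1.71). The ratios of list genes were not recomputed without top cells or C1q-rich cells. Whether Gzmd and Xcl1, the genes nearest to Gzmc over populations, also rested on single RTT cells was therefore not tested. The interferon-gamma receptor gene Ifngr1 was 482 and 521 CPM and the kinase gene Jak1 471 and 320 CPM.

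Among other inhibitory receptor and exhaustion genes, as for Pdcd1, the ratios within NK_cells were smaller than over all cells. Of 15 counted, 11 were lower and 1 higher over all cells, but 3 were lower and 12 within 2-fold in NK_cells, where 13.2% of all genes were lower. The 3 were Tigit, an inhibitory receptor gene (91.9 and 16.3 CPM), Tox, a regulator of exhaustion (256 and 114 CPM), and Prdm1, the Blimp-1 gene (124 and 43.4 CPM). Ctla4 was 439 and 282 CPM and Tnfrsf9, an activation receptor gene, 1013 and 1104 CPM. Id2, a transcription regulator gene of effector and NK cells, was 1391 and 740 CPM (log2 -0.91), and Entpd1, which encodes the ectoenzyme CD39, was 79.1 and 67.8 CPM. Of the 11 stem-like and naive partners of Tcf7 counted in NK_cells, 10 were within 2-fold, 1 was higher and 0 were lower, beside 9 of 13 lower over all cells, where 14.2% of all genes were lower. Il7r, the interleukin-7 receptor gene, was 405 and 312 CPM in NK_cells.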

How the data were processed

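Single cells of 1 NTT and 1 RTT library were sequenced with the Chromium Next GEM 3′ kit. The deposited matrix holds raw UMI counts per gene and cell, made by the authors with Cell Ranger 6.1.1 on mm10 according to the submitters' processing notes and the study's methods. The authors kept cells with over 1000 genes and limited mitochondrial and ribosomal reads, removed ribosomal and mitochondrial genes, and named the populations. Over the deposited genes 88 NTT and 47 RTT cells had at most 1000, and all were kept. How doublets were treated is not given in the sources used here, and scrublet (scanpy 1.11.5), which called 0 of 2975 and 0 of 4840 cells, was taken not to have worked. UMIs were summed per library and population in Python 3.11.15 (numpy 2.4.6, scipy 1.17.1, pandas 2.3.3), as sums of counts and not as replicates. Infl_Mono, Monocyte_1 and Monocyte_3 were joined as monocytes, TAM_C1q, TAM_H2Ab1, TAM_Spp1, TAM_cycling, Ctsk_Macro and Macro as macrophages, and cDC1, cDC2 and DC3 as dendritic cells. A gene with 0 UMIs in 1 library was set against a floor of 3 UMIs. The ratio was tested on simulated counts for 11623 genes over all cells, where 99.5% of the 200 changed genes were recovered and 0.671% of unchanged genes called, and for 7767 genes in NK_cells, where these were 97% and 4.53%. The alternatives were TMM (edgeR 4.0.16) and DESeq2 1.42.0 scaling, thinning, cell filters and leaving out top cells. Beside the 10 members, up to 5 genes per list with most UMIs, and others chosen after their values were seen (Gzmd, Gzme, Gzmf, Ctsw, Xcl1, Tigit, Tox and Ctla4), were named, and some genes are not reported here. Likeness was the Pearson correlation of log2(CPM + 10) over population sums, among genes with at least 200 UMIs. The members and lists were chosen with earlier results of these data known. Positions are from GENCODE on GRCm38 and promoters from RefSeq (GRCm38.p6). The 3′ ends of the members shared no stretch of 50 bases with another gene.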

Additional observations from a re-analysis of the deposited data

Results flagged for a closer look

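Tcf7 is listed here because its ratio had opposite signs in 2 cell classes, with a log2 of RTT over NTT of 0.54 in NK_cells and -2.43 in dendritic cells. Each class had 1 library per group, so the difference between the classes was not tested. The NK_cells value became -0.81 without the cell with most Tcf7 UMIs of each library, and the dendritic cell value was -0.86 within DC3 alone.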

How the results depend on the processing

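No paired analysis was possible because each group held 1 library and no result came from a test. Over all cells 9 genes were lower under each alternative but thinning to 2000 UMIs, which gave 8 of the 9 genes with a value. Within NK_cells the count of 3 lower became 5 without the top cell of each library and, chosen after seeing the data, 6 without the top 2 cells and 1 without cells with at least 20 C1q UMIs, and lay at 2 or 3 under the rest. In monocytes the 1 lower gene became 0 with cells of at least 1500 genes, 0 after thinning and 0 without cells with a lymphocyte defining UMI. In macrophages 2 became 0 after thinning, 0 without cells with a lymphocyte defining UMI and 7 with no minimum of UMIs. In dendritic cells 2 became 7 with no minimum and 1 without cells with a lymphocyte defining UMI, a filter that also removed cells with Klrd1 and Klrk1, genes that dendritic cells hold here, and left Havcr2 at 1.30. In CD8 cells, chosen after seeing the data, leaving out the top cell of each library turned Tcf7 from 1.60 to -0.98. Of the 267 single ratios outside that subset under the alternatives 244 kept direction and side of the threshold, 12 dropped inside it, 9 passed it and 2 moved. TMM and DESeq2 scaling shifted the ratios by at most 0.06. The counts of genes lying mostly outside NK_cells, 1 and 2, and the share-based counts held to within 1.5 times. The 51 RTT NK_cells, 7 with Tcf7, limit what could be detected, and cells without a T cell defining UMI (1 per library) were not analysed apart.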

Other observations

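Of 6 genes of ligands met by the inhibitory receptors, 3 were at least 2-fold lower in RTT over all cells and 0 higher, where 14.2% of all genes were lower and 10.5% higher. In dendritic cells Hmgb1 was higher (log2 1.07), while Cd274 (log2 -1.80) and Ceacam1 (log2 -1.97) were lower. Over all cells Cd274, which encodes PD-L1, was 163 CPM in NTT and 12.5 CPM in RTT (log2 -3.71). Pdcd1lg2, which encodes PD-L2, was 43.8 and 6.58 CPM (log2 -2.74). Lgals9, the galectin-9 gene, was 255 and 180 CPM (log2 -0.50), and Hmgb1 was 510 and 925 CPM (log2 0.86). The part of population shares in these all-cell values was not tested.

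A few Tcf7 UMIs lay in cells with a stromal name inside the CD45+ sort. Cells labelled Myofibrobl held 4 Tcf7 UMIs in 1 of 14 NTT cells and 10 UMIs in 6 of 24 RTT cells, the latter 11.5% of all RTT Tcf7 UMIs. Of these 6 cells 4 also had a CD3 or T cell receptor UMI, as had 12 of all 24, and 3 of the 10 UMIs lay in cells without one, so the identity of the cells was not settled. In RTT macrophages Pdcd1 had 25 UMIs in 17 of 4009 cells, 1 of which also had a CD3 or T cell receptor UMI. That is 0.272% of the NK_cells level, above the 0.0760% of the CD3 and T cell receptor sum in the same cells, and its source was not tested.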
